A study of Mus musculus with 6 samples.

Results

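The 10 genes described here encode the Fos and Jun proteins and 3 other products of the first transcriptional wave that follows a stimulus: Fos, Fosb, Fosl1, Fosl2, Jun, Junb, Jund, Egr1, Atf3 and Ier2. They were chosen by name, and each matched 1 of the 54532 rows of the deposited gene table. All 10 had enough counts to be tested, as did 13705 genes in all. The libraries hold RNA of mesenchymal stromal cells, precursors of bone, cartilage and fat cells, from mouse alveolar bone, the jaw bone around the tooth roots. Wild-type mice (WT) and mice without Ccrl2 (KO), a gene for an atypical chemokine receptor, gave 3 libraries each. Both groups are described by the submitters as exposed to the inflammatory cytokine TNFα and induced towards bone. The sources used here give neither age, sex, strain, TNFα dose nor duration, and do not explain the word Ctrl in the names of the count columns. The replicates are called biological but are not tied to individual mice, so p-values may measure only the spread between cultures.

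AP-1 is a dimeric transcription factor that binds the sequence TGACTCA and its relatives through basic regions held together by a leucine zipper. Fos proteins cannot pair with each other and commonly take a Jun partner, whereas Jun proteins can also pair among themselves. The supply of each member thus helps to set which dimers can form. Fos, Fosb, Jun, Junb, Egr1, Atf3 and Ier2 are classical immediate early genes: growth factors, cytokines and stress switch them on through MAP kinases, serum response factor and cAMP response element binding proteins without new protein synthesis, and their messages decay quickly. Fosl1 (Fra-1) and Fosl2 (Fra-2) follow later and last longer. In mice, Fos is needed for osteoclasts, and Fosl1, Fosl2, Junb and the short ΔFosB form act in osteoblasts and bone matrix.

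Promoter sequence is shown for the 4 members whose RefSeq transcription start lay within 30 bases of the start of the deposited gene, since these are the Fos and Jun genes on which the results below turn. Each line gives the 250 bases before the RefSeq start (GRCm38.p6), 5′ to 3′ on the gene's own strand, with motif matches in capitals. The windows are chr12:85473640-85473889 on the plus strand for Fos, chr7:19310046-19310295 on the minus strand for Fosb, chr4:95052223-95052472 on the minus strand for Jun and chr8:84978749-84978998 on the minus strand for Junb.
Fos: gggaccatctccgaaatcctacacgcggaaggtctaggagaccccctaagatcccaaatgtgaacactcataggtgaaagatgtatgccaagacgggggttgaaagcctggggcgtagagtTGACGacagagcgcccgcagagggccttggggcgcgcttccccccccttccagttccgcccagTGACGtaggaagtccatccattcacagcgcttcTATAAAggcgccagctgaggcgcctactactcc
Fosb: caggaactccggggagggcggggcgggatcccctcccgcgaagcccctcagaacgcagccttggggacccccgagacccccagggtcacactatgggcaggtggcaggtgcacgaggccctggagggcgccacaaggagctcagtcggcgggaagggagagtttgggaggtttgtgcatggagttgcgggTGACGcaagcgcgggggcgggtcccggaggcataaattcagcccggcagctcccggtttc
Jun: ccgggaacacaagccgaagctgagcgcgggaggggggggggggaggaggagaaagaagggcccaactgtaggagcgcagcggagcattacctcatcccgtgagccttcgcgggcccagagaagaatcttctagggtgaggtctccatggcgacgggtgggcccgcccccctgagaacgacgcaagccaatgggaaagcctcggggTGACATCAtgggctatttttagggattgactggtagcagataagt
Junb: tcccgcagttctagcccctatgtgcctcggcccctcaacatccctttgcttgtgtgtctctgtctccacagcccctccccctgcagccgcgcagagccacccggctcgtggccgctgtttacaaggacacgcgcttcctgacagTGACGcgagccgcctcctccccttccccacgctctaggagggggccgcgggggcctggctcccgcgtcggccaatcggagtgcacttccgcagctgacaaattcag
The capitals mark TGACG, the core of the cAMP response element (CRE), in Fos at 129 to 125 and 66 to 62 bases before the start, in Fosb at 60 to 56 and in Junb at 106 to 102. In Jun they mark TGACATCA, the variant AP-1 site of that promoter, at 45 to 38 bases before the start, and in Fos also TATAAA at 33 to 28. The 7 motifs named here were searched on both strands in the 7 members with a promoter entry, which besides these were Atf3, Fosl2 and Jund. Fosl1, Egr1 and Ier2 had no entry. TGACG was present in 4 of the 7 (Atf3, Fos, Fosb and Junb) and in 17.9% of 32536 distinct promoters, TGACATCA in 1 of 7 and 2.84%, and TATAAA in 1 of 7 and 12.3%. TGACG lies within the full CRE TGACGTCA, which was in none of the 7 and in 1.56% of all promoters. The AP-1 site TGACTCA (4.45% of all), the CArG box of serum response factor (1.48%) and the EGR site GCGTGGGCG (0.541%) had no match in these windows, which says only that those letters are not there. The RefSeq starts of Fosl2, Jund and Atf3 lay 671, 1210 and 34706 bases from the deposited gene starts, so these windows belong to other starts than the deposited ones. A match is a description of sequence and not of binding.

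Some members share features of transcript structure, and the stability of the messages was not measured. The principal transcripts of Jun, Junb, Jund and Ier2 have a single exon in GENCODE M21, 4 of 10 members against 3.52% of 9310 tested genes with a principal transcript. In their 3′ untranslated regions, the AU-rich motif TATTTAT (in DNA letters, sense strand) was present in 7 of 10 members, all but Junb, Egr1 and Ier2, against 28.7% of 9302 tested genes. The longer form TTATTTATT, which contains the shorter one, was present in Fos and Fosl2 alone among the members, against 7.6% of tested genes. The searched regions ran from 488 bases in Junb to 4656 in Fosl2, against a median of 1048 over tested genes, and a longer region has more room for a match.

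Total counts per library lay between 16114974 and 18616433. KO replicate 2 stood apart on the first principal component (52.1% of the variance), at 66.6 against -31.2 to -15.9 in WT and 3.40 and 7.76 in the other KO libraries. It had 16428 genes with a count against 18928 to 19372 elsewhere, and 2.32% mitochondrial counts against 1.09% to 1.56%. Results that rest on it are therefore given with and without it. Ccrl2 itself had 4, 3 and 0 counts in WT replicates 1 to 3 and 0 in each KO library, too few for a test or a check of the labels. All 14 stromal marker genes fixed for this work were expressed. They summed to 65526 to 78710 CPM in WT and to 71827, 46239 and 63565 in KO replicates 1 to 3. Col1a1 and Col1a2 were the highest of them, with WT means of 38878 and 21848 CPM. Of the 14, 7 had positive and 7 negative log2 fold changes. Thy1 was called lower in KO (-0.81 ± 0.10, adjusted p = 0.00141 by edgeR), where edgeR called 2.67% of all tested genes. DESeq2 called Col3a1 and Pdgfra lower too, against 4.79% of all tested genes. Limma-voom with quality weights called 3 of the list higher and 5 lower, against 18.5%. None of the 6 neutrophil and 6 epithelial markers reached the count filter. Of 6 endothelial markers only Kdr, with 10 to 64 counts, reached it. Kdr had means of 3.25 CPM in WT and 1.37 in KO and was not called (-1.23 ± 0.45, adjusted p = 0.241 by edgeR).

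All 10 genes were transcribed in every library. Levels are CPM, that is, counts scaled to library size with TMM factors, and only CPM per kilobase of the deposited gene length is used to compare genes with each other. In WT, Egr1 stood highest at 82.8 ± 6.65 CPM per kilobase (SD, n = 3), followed by Jun at 81.8 ± 6.07, Ier2 at 76.2 ± 1.26 and Junb at 68.7 ± 3.05. Egr1, Jun and Ier2 overlapped between neighbours and so had no clear order, whereas every Junb value lay under every Ier2 value. Fosl1 (32.0 ± 2.76) and Jund (30.2 ± 2.82) overlapped in the middle, then came Fosl2 (23.4 ± 2.39) and Fos (16.5 ± 0.92), which overlapped with neither neighbour. Atf3 (1.56 ± 0.18) and Fosb (1.56 ± 0.11) were lowest and overlapped. This order depends on the deposited lengths, such as 2154 bases for Atf3, 6243 for Fosb and 9680 for Fosl2, and no other length was tried. The order of the means in KO was the same, with more overlap: Ier2 then overlapped with Junb, and Jund with Fosl2.

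**Figure D1:**
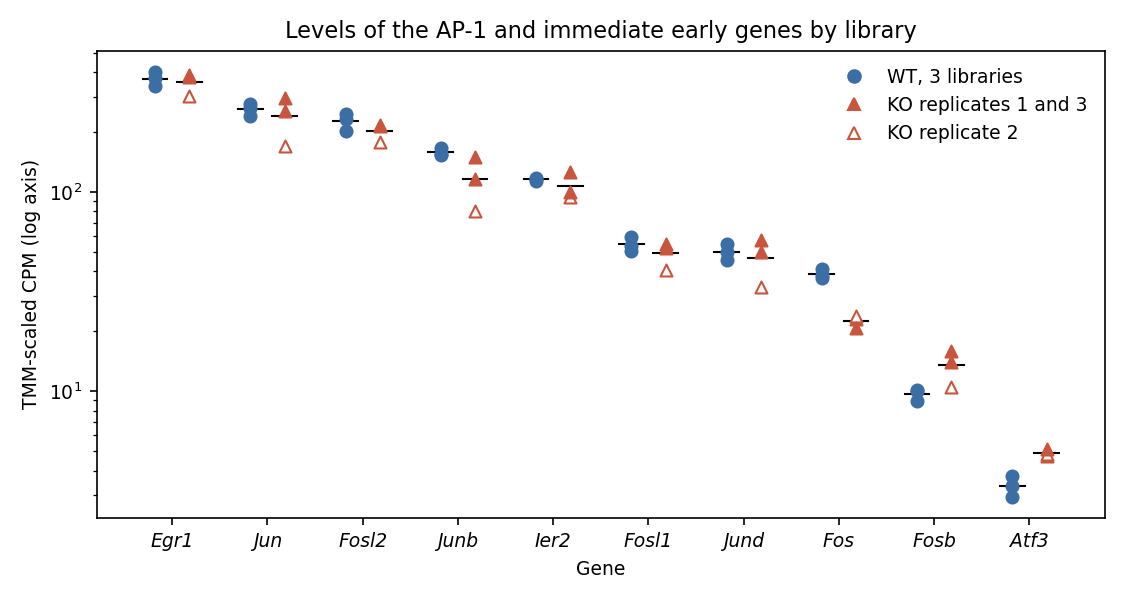
TMM-scaled CPM on a log axis for each of the 10 genes, ordered by their WT mean, with 1 symbol per library (circles WT, filled triangles KO replicates 1 and 3, open triangles KO replicate 2) and bars at the group means. The 3 Fos values in KO, 20.8 to 24.0, lie under the 3 in WT, 37.1 to 41.3, while the open triangle is the lowest of 6 symbols in 7 genes.

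Fos fell in the KO cultures, and no other member passed the test. Of the 10 members, 1 passed the 0.05 threshold (edgeR's quasi-likelihood test with Benjamini-Hochberg adjustment over 13705 genes), against a background of 2.67% of all tested genes in both directions and 2.31% called lower. The groups did not overlap in 4 members, Fos and Junb lower and Fosb and Atf3 higher in KO, against 20.6% of all tested genes. The median log2 fold change over the 10 members was -0.12, against 0.02 over all tested genes. Without KO replicate 2 it was 0.01, and Fos and Fosb were called, against 4.33% of genes. With all libraries, DESeq2 and limma-voom each called Fos and no other member, against 4.79% and 2.37% of all tested genes. Limma-voom with a quality weight per library called Fos and Junb lower and Fosb and Atf3 higher, where 18.5% of all genes were called.

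Fos (chromosome 12, 85473890 to 85477273, plus strand, GRCm38), the founding member of the family, was measured by 651, 656 and 683 counts in WT replicates 1 to 3 and 384, 389 and 392 in KO. Scaled, these were 38.4, 41.3 and 37.1 CPM in WT and 23.0, 24.0 and 20.8 CPM in KO. The groups lay far apart relative to their spread. KO replicate 2 was the highest KO library for this gene, at 109% of the mean of the other KO libraries. The log2 fold change was -0.78 ± 0.12 (SE, 95% interval -1.06 to -0.51, adjusted p = 0.00654 by edgeR), 1.72-fold higher in WT, and Fos ranked at 142 among the 13705 genes by p. It was -0.83 without KO replicate 2 (adjusted p = 0.000433). Fos passed in 14 of 16 alternatives and missed the threshold in the other 2: leaving out WT replicate 2 gave -0.75 (adjusted p = 0.0648), and leaving out KO replicate 3 gave -0.73 (adjusted p = 0.0527).

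Genes of macrophages, cells that can also express Fos, were lower in the same libraries. Of 17 tested macrophage markers, 14 were called lower in KO, against 2.31% of all tested genes. The 19 listed markers summed to 416 to 464 CPM in WT and 108 to 117 in KO. Ptprc, the pan-leukocyte gene CD45, stood at 4.48, 4.28 and 3.64 CPM in WT replicates 1 to 3 and at 0.80 to 1.22 in KO. Of 8 listed osteoblast markers 4 were tested, and 3 were called higher in KO, against 0.365% of all tested genes. These were the bone matrix gene Ibsp (6.08-fold), the osteoblast factor Sp7 (3.76-fold) and the phosphatase gene Alpl (2.49-fold). Runx2, the most highly expressed of the list, stood at 55.5 CPM in WT and 53.6 in KO (-0.05 ± 0.13, adjusted p = 0.880 by edgeR). Bglap, Bglap2, Dmp1 and Phex were too low to test. The list, Runx2 included, summed to 57.5 to 71.9 CPM in WT and 77.1 to 85.0 in KO. Of 3 tested pericyte markers Rgs5 was called higher (2.21-fold), against 0.365% of all tested genes. Mcam (0.52 ± 0.15) and Cspg4 (-0.41 ± 0.17) were not called. The 5 listed pericyte markers summed to 148 to 205 CPM in WT and 129 to 165 in KO. The part of these cells in the Fos difference was not tested, and in bulk RNA fewer cells of a type and less RNA per cell cannot be told apart.

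Fosb (chromosome 7, 19302696 to 19310051, minus strand), the closest relative of Fos, had 172, 160 and 165 counts in WT replicates 1 to 3 and 234, 171 and 301 in KO. Its scaled levels were 10.1, 10.1 and 9.0 CPM in WT and 14.0, 10.5 and 16.0 CPM in KO. The KO values were all above WT, but KO replicate 2 exceeded the highest WT value only slightly. Fosb did not pass, with a log2 fold change of 0.48 ± 0.19 (adjusted p = 0.281). Without KO replicate 2 it was 0.63, and the gene passed (adjusted p = 0.0404 by edgeR), where 4.33% of all genes were called.

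Fosl1 and Fosl2, the Fra genes, gave no call. Fosl1 (chromosome 19, 5447703 to 5455945, plus strand, as deposited) stood at 53.5, 59.8 and 50.6 CPM in WT and 55.0, 40.6 and 52.4 in KO. Its log2 fold change was -0.15 ± 0.14, with a 95% interval from -0.45 to 0.16 and adjusted p = 0.631. KO replicates 1 and 3 lay within the WT range, and KO replicate 2 lay under it. Fosl2 (chromosome 5, 32135801 to 32157842, plus strand) stood at 247, 232 and 202 CPM in WT and 213, 179 and 218 in KO, again with KO replicate 2 lowest (-0.16 ± 0.12, interval -0.43 to 0.11, adjusted p = 0.554).

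The Fra genes led the Fos transcripts in every library, and the share of Fos was smaller in the KO libraries. Per length, Fosl1 held 41.9% to 48.6% and Fosl2 30.7% to 34.9% of the transcripts of the 4 Fos genes. Fos held 21.8%, 22.5% and 23.3% in WT replicates 1 to 3 and 14.8%, 18.8% and 13.7% in KO. Fosb held 2.06% to 2.17% in WT and 3.12% to 3.96% in KO. The shares of neither gene overlapped between groups, and shares of the same total depend on each other. For levels of single genes the groups did not overlap in 20.6% of all tested genes, and for shares no such rate was worked out. The 4 genes summed to 73.5 ± 5.36 CPM per kilobase in WT and 61.7 ± 6.60 in KO (SD, n = 3 each). These sums and shares are descriptions of genes chosen by name and carry no test.

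**Figure D2:**
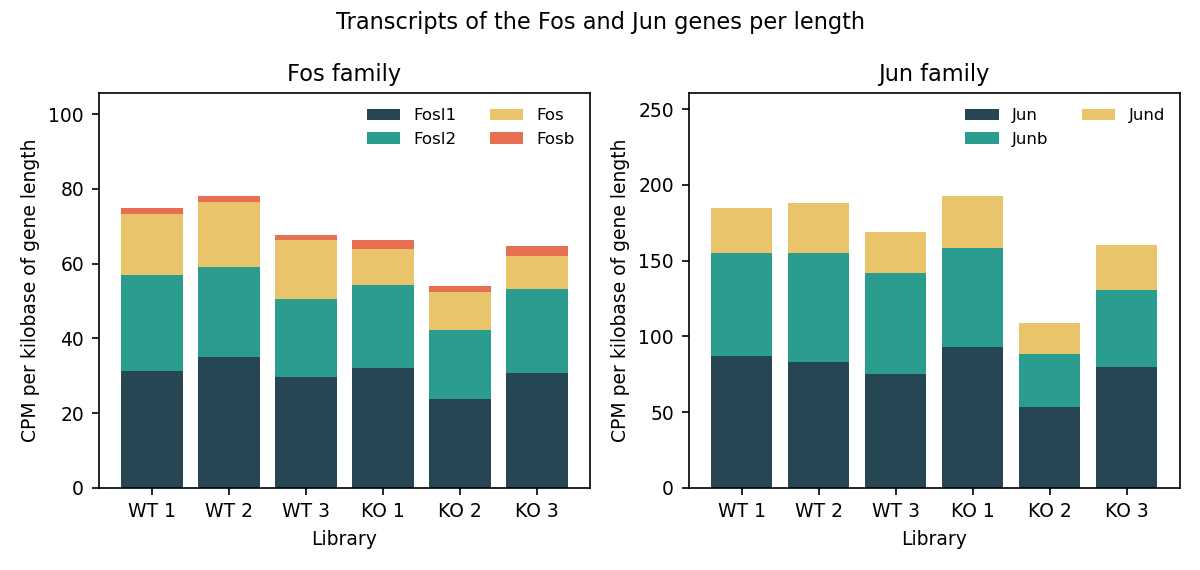
Stacked CPM per kilobase of the 4 Fos genes (left) and the 3 Jun genes (right) in each library, on linear axes from 0. The Fos segment is 15.8 to 17.6 in WT and 8.84 to 10.2 in KO, and the Jun family total of KO replicate 2 is 109 against 160 to 193 in the other libraries.

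The 3 Jun genes, whose products are common partners of Fos proteins, did not pass the test, and Jun and Jund changed sign without KO replicate 2. Jun (chromosome 4, 95049034 to 95052222, minus strand) stood at 278, 264 and 240 CPM in WT and 296, 171 and 255 in KO. KO replicate 1 was the highest of all libraries, KO replicate 3 lay within the WT range, and KO replicate 2 was the lowest, at 62.0% of the mean of the other KO libraries. The log2 fold change was -0.12 ± 0.18 (interval -0.51 to 0.27, adjusted p = 0.774), and 0.08 without that library. Jund (chromosome 8, 70698949 to 70700616, plus strand), the most steadily expressed Jun gene in most cells, stood at 50.2, 55.0 and 45.6 CPM in WT and 57.4, 33.5 and 49.8 in KO. It gave -0.10 ± 0.18 (interval -0.50 to 0.30, adjusted p = 0.816) with all libraries and 0.09 without KO replicate 2.

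Junb (chromosome 8, 84974484 to 84978718, minus strand), which restrains Jun at many targets, had KO values that all lay under WT, but did not pass. It stood at 155, 166 and 153 CPM in WT and 151, 80.8 and 117 in KO, so KO replicate 1 came within a few CPM of the lowest WT value. Its log2 fold change was -0.45 ± 0.19 with adjusted p = 0.308, and -0.24 without KO replicate 2 (adjusted p = 0.373). Junb was called by edgeR without the filter on low counts (-0.44, adjusted p = 0.0240), where 883 of 24034 genes were called. Limma-voom with library quality weights called it too (-0.45, adjusted p = 0.00571), where 18.5% of all genes were called. Its deposited interval overlaps that of Prdx2 on the other strand, which had 4016 to 5839 counts, and the sources used here do not say whether counting used strand. Prdx2 itself stood at 262 CPM in WT and 280 in KO (0.10 ± 0.16, adjusted p = 0.803). Jun likewise overlaps the antisense gene Junos, which had 23 to 74 counts.

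Within the Jun family, Jun held 44.1% to 47.2% of transcripts per length in WT and 48.2% to 49.8% in KO, Junb 36.5% to 39.3% and 31.6% to 34.0%, and Jund 16.2% to 17.5% and 17.9% to 18.6%. None of the 3 shares overlapped between groups, KO replicate 2 included. Levels of single genes did not overlap in 20.6% of all tested genes, and no such rate was worked out for shares. Shares of the same total depend on each other, and the levels of Jun and Jund themselves overlapped between groups. The family summed to 185, 188 and 169 CPM per kilobase in WT and 193, 109 and 160 in KO. The ratio of summed Fos to summed Jun transcripts was 0.407 ± 0.00793 in WT and 0.415 ± 0.0778 in KO (SD, n = 3 each), with KO replicate 1 lowest at 0.344 and KO replicate 2 highest at 0.498.

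Atf3, a stress-induced repressor that pairs with Jun proteins, had few counts. The gene (chromosome 1, 191170296 to 191218039, minus strand) had 57, 47 and 69 counts in WT and 79, 79 and 97 in KO, or 3.4, 3.0 and 3.7 CPM against 4.7, 4.9 and 5.1. All KO values were above WT, KO replicate 2 among them. Atf3 gave a log2 fold change of 0.55 ± 0.24 with adjusted p = 0.328, and between 0.46 and 0.68 in the 16 alternatives. Only limma-voom with library quality weights called it (adjusted p = 0.0236), where 18.5% of all genes were called.

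The remaining immediate early genes, which lie outside the bZIP family, did not pass the test. Egr1 (chromosome 18, 34859823 to 34864984, plus strand), a zinc finger factor switched on by the same signals as Fos, stood at 401, 372 and 341 CPM in WT and 378, 302 and 386 in KO. It gave -0.06 ± 0.12 (interval -0.34 to 0.21, adjusted p = 0.836), and the sign changed to 0.04 without KO replicate 2. Fos and Egr1 thus had different values in the same libraries, with 1.72-fold higher Fos in WT beside 1.04-fold higher Egr1, although the difference between these changes was not tested. Ier2 (chromosome 8, 84661331 to 84662852, minus strand), a nuclear protein of the early growth response, stood at 114, 116 and 118 CPM in WT and 126, 94.5 and 100 in KO (-0.12 ± 0.12, interval -0.39 to 0.15, adjusted p = 0.666). Its WT libraries lay close together, with KO replicate 1 above all of them and KO replicates 2 and 3 under them.

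**Figure D3:**
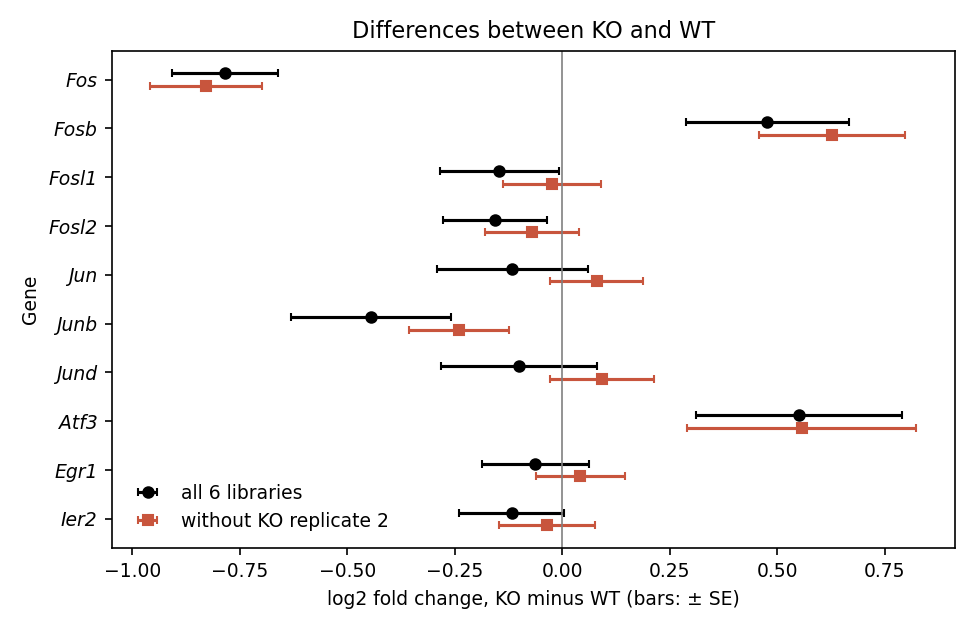
The log2 fold change of KO against WT for each gene, ordered by family, with bars of ± SE, from all 6 libraries (circles) and without KO replicate 2 (squares). Fos lies at -0.78 and -0.83, Fosb at 0.48 and 0.63, and Jun, Jund and Egr1 change sign between the 2 fits.

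KO replicate 2 had the lowest level of all libraries in 7 of the 10 members (Fosl1, Fosl2, Jun, Junb, Jund, Egr1 and Ier2), against 31.5% of all tested genes. Against the mean of the other KO libraries it stood between 60.4% for Junb and 109% for Fos, with a median of 77.4% over the members and 99.9% over all tested genes. The CV of Jun was 7.43% in WT and 26.6% in KO, that of Junb 4.43% and 30.2%, and that of Fos 5.59% and 7.21%. The higher mitochondrial share and lower gene number of KO replicate 2 accompany these values, and their part was not tested.

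Correlations across the 6 libraries are a description of points that share library and depth, and many of them rested on KO replicate 2. Jun and Jund had a Pearson correlation of 0.97 in log2 CPM, and 0.83 without that library. Junb had 0.87 with Jun and 0.86 with Jund, but 0.24 and 0.26 without it. Jun and Egr1 had 0.92, and 0.64 without it. The correlation of Fos was 0.23 with Jun and 0.17 with Egr1, and both turned to -0.25 without KO replicate 2. It was 0.64 with Junb (0.80 without that library), -0.83 with Fosb (-0.95) and -0.97 with Atf3 (-0.97). These values include the difference between the groups. With each group centred on its own mean, Fos gave -0.21 with Junb, -0.54 with Fosb and -0.78 with Atf3. Centred in the same way, it gave -0.32 with Jun and -0.42 with Egr1. Among the genes outside the members most like Fos, of 10006 compared, were Adgrd1 (Pearson 0.996, Spearman 1), Cdc42ep2 (0.994), Igfbp6 (0.991) and Arrb2 (0.991). Over 6 libraries 113 genes exceeded 0.95 with Fos, so a high value marks little. Adgrd1, an adhesion receptor, stood at 19.5 CPM in WT and 5.87 in KO. Igfbp6, a binding protein of insulin-like growth factor, stood at 135 and 34.5. Most like Fosl1 were Eif4enif1 (0.996), Cyth3 (0.995), Chtf8 (0.993), Nomo1 (0.992) and Ptpn1 (0.991), all with log2 fold changes between -0.15 and -0.02 and none called.

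The wider bZIP family, which supplies other partners for Fos and Jun proteins, held 1 called gene. Of 24 tested members of 27 listed, edgeR called Cebpd lower and none higher, where 2.67% of all tested genes were called. An unadjusted p under 0.05 was found for 6, against 14.5% of all tested genes. The median log2 fold change was 0.04, against 0.02 over all tested genes. DESeq2 called 2 and limma-voom 1, all lower, against 4.79% and 2.37% of all tested genes. Limma-voom with quality weights called 6, Atf4 higher and 5 lower, where 18.5% of all genes were called. Cebpd, an early factor of inflammation and fat cell formation, stood at 224, 209 and 193 CPM in WT and 137, 77.3 and 100 in KO (-0.99 ± 0.18, adjusted p = 0.0153). It was not called when KO replicate 3 or any 1 of the WT libraries was left out (adjusted p of at most 0.102). Cebpb, its relative, was called lower by DESeq2 and by edgeR without KO replicate 2 (edgeR with all libraries -0.72 ± 0.19, adjusted p = 0.0833). Among the AP-1 relatives proper, Jdp2, a repressor that pairs with Jun, gave -0.13 ± 0.14, and Batf, Batf2 and Batf3, which are genes of lymphoid and myeloid cells, were too low to test.

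Of 50 other immediate early genes tested, edgeR called 1 lower and none higher, where 2.67% of all tested genes were called. An unadjusted p under 0.05 was found for 9, against 14.5% of all tested genes. Values were negative for 33 and positive for 17, and the median was -0.06 against 0.02 over all tested genes. DESeq2 called 2 and limma-voom 1, all lower, against 4.79% and 2.37% of all tested genes. Limma-voom with quality weights called 13, 6 higher and 7 lower, where 18.5% of all genes were called. The called gene was Dusp4, a phosphatase that switches off ERK and JNK in the nucleus, with 13.2, 15.7 and 11.6 CPM in WT and 3.5, 2.0 and 5.9 in KO (-1.81 ± 0.32, adjusted p = 0.0140). Every KO value was under 6 CPM and every WT value over 11. Dusp4 was not called when KO replicate 1, WT replicate 1 or WT replicate 2 was left out, with an adjusted p of at most 0.0853. Its relatives Dusp1 (-0.03 ± 0.14), Dusp5 (0.01 ± 0.12) and Dusp6 (-0.07 ± 0.12) did not pass. The other EGR genes Egr2 (-0.05 ± 0.16) and Egr3 (0.15 ± 0.17) and the orphan receptors Nr4a1 (-0.32 ± 0.19), Nr4a2 (-0.04 ± 0.21) and Nr4a3 (0.06 ± 0.36) did not either. Without KO replicate 2, Zfp36l1 was called lower and Arc higher besides Dusp4, where 4.33% of all genes were called. DESeq2 called Zfp36l1 lower with all libraries.

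Upstream of these genes, none of 24 tested regulators was called, against 2.67% of all tested genes (edgeR). An unadjusted p under 0.05 was found for 3, against 14.5% of all tested genes. DESeq2 and limma-voom called 0 too, against 4.79% and 2.37%. Limma-voom with quality weights called 3, against 18.5%. The genes of unadjusted p under 0.05 were Rps6ka1, the kinase RSK1 (-0.98 ± 0.33, adjusted p = 0.206), Rps6ka3, RSK2 (0.34 ± 0.14, 0.306) and Mapk3, ERK1 (-0.26 ± 0.11, 0.307), all by edgeR with Benjamini-Hochberg adjustment. Mapk3 stood at 197, 205 and 199 CPM in WT and 175, 148 and 179 in KO, and Srf, serum response factor, at 118, 112 and 97.7 against 138, 85.9 and 127. The median over the list was -0.06, against 0.02 over all tested genes.

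Genes commonly driven by AP-1 held no call by edgeR, where 2.67% of all tested genes were called. Of 25 tested members of 29 listed, none was called, 13 had positive and 12 negative values, the median was 0.05, and 7 had an unadjusted p under 0.05 (edgeR), 5 higher and 2 lower, against 14.5% of all tested genes. Mmp13, a collagenase of bone and cartilage with an AP-1 site in its promoter, stood at 7.4, 8.9 and 14.0 CPM in WT and 21.5, 14.9 and 22.4 in KO (0.95 ± 0.25, adjusted p = 0.0848). DESeq2 called 3 of the list, Mmp13 (adjusted p = 0.0112), Vegfa and Ccl2, against 4.79% of all tested genes. Limma-voom called 0, and with quality weights 6, against 18.5%. Mmp13 was also called by edgeR without KO replicate 2 (adjusted p = 0.00326). Vegfa, the endothelial growth factor, stood at 50.6, 51.9 and 48.3 CPM in WT and 75.3, 62.6 and 68.3 in KO (0.45 ± 0.11, adjusted p = 0.0703). Ccl2, a monocyte attractant, had 15 to 108 counts and did not pass either (-1.35 ± 0.40, adjusted p = 0.137). Without KO replicate 2, Mmp13 and Vegfa were called higher and Ccl2 lower, where 4.33% of all genes were called.

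Heat shock genes, a sign of handling stress that also raises immediate early genes, held no call among 12 tested (edgeR). Over all tested genes 2.67% were called. The median was 0.09, against 0.02 over all tested genes, and 1 unadjusted p was under 0.05, against 14.5%. DESeq2 and limma-voom called 0, against 4.79% and 2.37%. Limma-voom with quality weights called 4, against 18.5%. The gene of smallest p was Hspb1, a small chaperone, at 382, 400 and 417 CPM in WT and 334, 347 and 331 in KO (-0.24 ± 0.10, adjusted p = 0.286). Dnaja1 (0.25 ± 0.14) and Hspa1b (0.26 ± 0.15) came next. Without KO replicate 2, Hspa1b was called higher, where 4.33% of all genes were called.

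**Figure D4:**
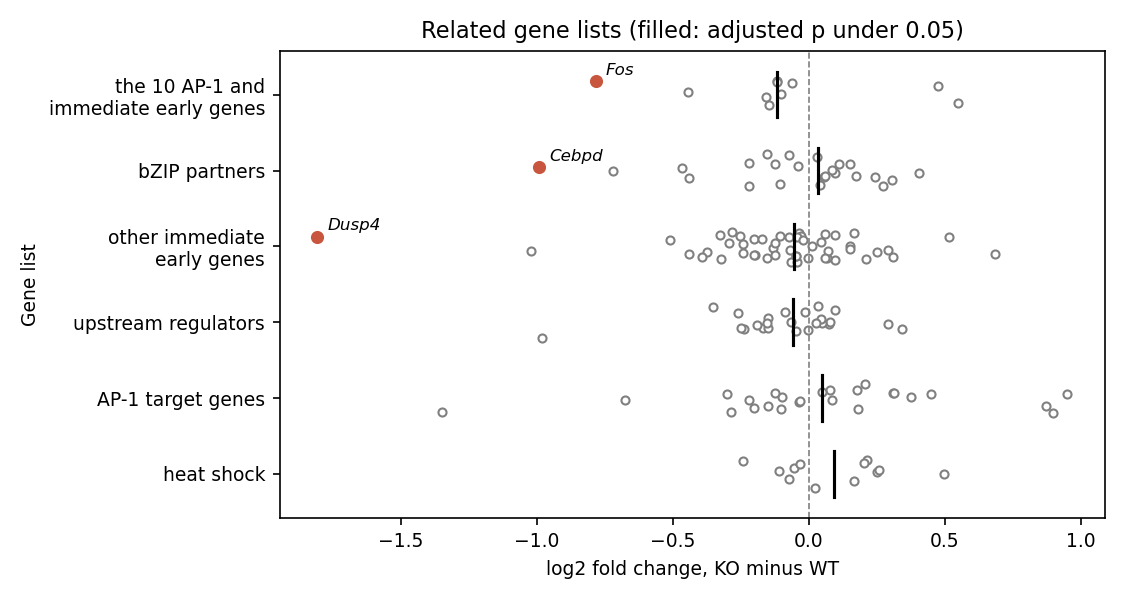
The log2 fold change of every tested gene in the 10 chosen genes and in 5 related lists, with filled points for adjusted p under 0.05 and vertical bars at list medians. Fos, Cebpd and Dusp4 are the filled points, all lower in KO, and the list medians lie between -0.12 and 0.09.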

How the data were processed

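The authors deposited 1 table of whole-number counts per gene for all 6 libraries, not normalized. TRIzol extraction and an NEBNext Ultra library kit are named in the labels' protocols. The submitters' processing notes name HISAT2, StringTie, SAMtools and mm9, with neither roles nor versions. The sources used here do not name the read counter. Gene starts and ends were those of GENCODE M21 for 98.3% of the 54495 identifiers that it also holds, so positions are given as GRCm38. The deposited gene length, a number of another kind, was used for levels per kilobase, so the order of genes and the family shares depend on it.

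Groups and replicate numbers came from the sample titles. The test of KO against WT was edgeR's quasi-likelihood test (edgeR 4.0.16 in R 4.3.3), with robust moderation, TMM scaling and filterByExpr (minimum count 10, total 15), with Benjamini-Hochberg adjustment and a threshold of 0.05. SE was taken as the size of the log2 fold change over the root of F, and 95% intervals use its moderated degrees of freedom. Correlations used log2 CPM with a prior count of 2. The smallest floor, 3 counts, is 0.159 to 0.189 CPM and covers counting error only. With 3 libraries a group an exact permutation test reaches p = 0.10 at best, so the model across genes was used for single genes. Chi-square per gene between replicates was 4.37 to 57.3, so no library repeated another. Alternatives were other scalings and filters, DESeq2 1.42.0, limma-voom 3.58.1 with and without quality weights, the replicate number as a block, no robust moderation, and each library left out.

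The members and lists were chosen with earlier results of these data known. All 10 members were named, with the called genes of each list (at most 6) or else its 3 of smallest p, and the 5 genes of at least 5 CPM most correlated with Fos and with Fosl1; 1 gene the rule names is not reported here. Other genes, such as the Dusp, EGR and NR4A relatives, Jdp2, Srf and Ptprc, and those called without KO replicate 2, were chosen after their values were seen. Promoter sequences are from RefSeq (GRCm38.p6).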

Additional observations from a re-analysis of the deposited data

How the results depend on the processing

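Of 160 values for the 10 members over 16 alternatives, 149 kept their direction and side of the threshold, 2 lost it, 5 gained it and 4 changed sign. Jun (0.079), Jund (0.092) and Egr1 (0.042) changed sign without KO replicate 2, and Egr1 did so with quality weights (0.011). With single libraries left out, Jun ranged from -0.30 to 0.079, Jund from -0.28 to 0.092 and Egr1 from -0.13 to 0.042. Among the other named genes, Eif4enif1 (-0.17 to 0.0012), Cyth3 (-0.050 to 0.00076) and Ptpn1 (-0.22 to 0.0026) changed sign without KO replicate 2. The members called, 1 with all libraries, numbered 2 without the filter, 4 with quality weights, and 0 to 2 with single libraries left out. Over all genes the 366 calls among 13705 tested became 883 among 24034 tested without the filter. They became 656 (4.79%) with DESeq2 and 2541 (18.5%) with quality weights. With single libraries left out they were 147 to 610, among 14008 to 14131 tested. The cause was not tested. Calls split 50 higher to 316 lower, against 258 to 625 without the filter and 1105 to 1436 with quality weights. With the replicate block, 331 genes and 1 member, Fos (adjusted p = 0.0105), were called, and the block changed no member's call. Of the other named genes it changed the call of Mmp13 (0.98, adjusted p = 0.0209). Deviations of libraries sharing a number correlated at 0.14, -0.11 and -0.19, so the numbers were not taken as a pairing. Scaling by library total alone gave -0.76 for Fos (adjusted p = 0.00714). Depth limits Atf3 most, at 47 to 97 counts per library.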
